A study of Arabidopsis thaliana with 3 samples.

Results

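ROP GTPase-activating proteins (ROP GAPs) with a CRIB domain form a small family in Arabidopsis thaliana, and the genes described here are its members AT1G08340, AT2G46710 (ROPGAP3), AT3G11490, AT4G03100 and AT5G22400. The family was taken by locus code, with each gene measured through spots that list it alone. Of these 5 genes, 3 had a spot (AT1G08340, AT4G03100 and AT5G22400, with 1 spot each) among 9253 genes with a value in all samples, and the other 2 were not analysed here. The family was chosen by the log2 ratios of AT1G08340 on these same arrays, already known to be low, so the values of its members are given as a description, with no test.

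RNA from the base of inflorescence stems was compared between nst1-1 nst3-1 double mutants and wild type on 3 two-colour arrays, each carrying RNA of 1 mutant line and wild-type RNA. Mutant plants carried T-DNA insertions in NST1 and NST3, genes for NAC transcription factors that promote secondary wall formation. The 3 mutant samples, called lines 1, 2 and 3 here, share the allele names nst1-1 and nst3-1. The submitters describe them as independent lines, and as unable to make secondary xylem in stem and hypocotyl. All plants, mutant and wild type, were untreated and grown in days of 8 h light and 16 h dark, and the lowest 4 cm was collected from stems 12 to 17 cm tall. The sources used here do not state the age of the plants, or if the wild-type RNA came from 1 extract or more.

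ROPs are small GTPases of plants. They act as molecular switches at the plasma membrane, where guanine nucleotide exchange factors (GEFs) load them with GTP, GTPase-activating proteins (GAPs) speed GTP hydrolysis and so switch them off, and guanine nucleotide dissociation inhibitors (GDIs) hold them in the cytosol. The CRIB motif next to the GAP domain binds ROPs and is characteristic of plant ROP GAPs. In xylem vessels, ROPGEF4 and a member of this family, ROPGAP3, confine ROP activity to small domains of the plasma membrane, where cortical microtubules are lost, no secondary wall is laid down and a pit forms. Other known effects of active ROPs are on actin, vesicle delivery and the NADPH oxidases that make reactive oxygen species.

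Across the series, the array of line 1 stood apart from those of lines 2 and 3: the Pearson correlation of log2 ratios over genes, which are not independent replicates, was 0.784 between lines 2 and 3, 0.488 between lines 1 and 2, and 0.477 between lines 1 and 3. In lines 1 and 3 the mutant RNA was labelled with Cy5, and in line 2 with Cy3. All ratios are mutant over wild type, on a log2 scale, under the reading that the deposited values are log10 of Cy5 over Cy3. That reading was inferred, and Cy3 over Cy5 would turn every sign. Under it the secondary wall genes HCT and IRX15 had means of -2.40 and -2.14 in a mutant described as making no secondary xylem. Under the other reading they would be higher in the mutant by as much. Both genes were listed with their low ratios on these arrays already known, so they are no independent check of the direction. NST1 and NST3 had no listed spot, and the transcripts targeted in the mutant were not analysed here. Spot brightness was not used, so only ratios are given, without levels. Precision is limited by there being 3 arrays.

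AT1G08340 was far lower in the mutant than in wild type in every line. Its log2 ratio was -3.55 in line 1, -3.18 in line 2 and -3.49 in line 3, which is 11.8-fold, 9.06-fold and 11.2-fold lower in the mutant. The 3 values lay close together, with line 2 the least low. The mean was -3.41 ± 0.20 (SD, n = 3 lines), or 10.6-fold lower. In a bulk sample of stem, fewer cells of a type that makes the transcript and less transcript per cell cannot be told apart.

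AT1G08340 was lower in the mutant in both dye orientations. The deposited values were -1.07 and -1.05 on the arrays of lines 1 and 3, and 0.957 on that of line 2, where the dyes were exchanged. Turned to mutant over wild type on the log2 scale, the arrays of lines 1 and 3 averaged -3.52, which is 0.34 below the value of line 2. These values are deposited to 3 significant digits, so a step of 0.01 in a deposited value beyond 1 corresponds to 0.033 on the log2 scale.

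Counted from the lowest ratio (from the highest, if the deposited ratios are Cy3 over Cy5), AT1G08340 ranked 5 among the 9253 genes by mean, and 4, 14 and 5 in lines 1, 2 and 3. It was 1 of 8 genes at least 8-fold lower on every array, a group that makes up 0.0865% of all genes. Its place is what the gene was chosen for, so nothing further is read from these ranks. Just below it in mean were AT1G22480, AT3G62730 and AT3G56230, at -4.02, -3.99 and -3.81. The next above it were AT1G56720, AT4G26580 and AT2G03200, at -3.38, -3.37 and -3.31.

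The spread of AT1G08340 between lines was ordinary for this array set. Its SD of 0.20 compares with a median SD of 0.18 over all genes, and 54.0% of genes had a smaller one. AT1G22480 and AT3G62730, which had lower means, had SDs of 1.12 and 1.10. In line 1 they measured -2.77 and -3.09, above the -3.55 of AT1G08340, and their lower means came from lines 2 and 3. The other rank neighbours had SDs nearer to that of AT1G08340. AT3G56230, also with a lower mean, had 0.33, and AT1G56720, AT4G26580 and AT2G03200 had 0.27, 0.22 and 0.16.

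**Figure D1:**
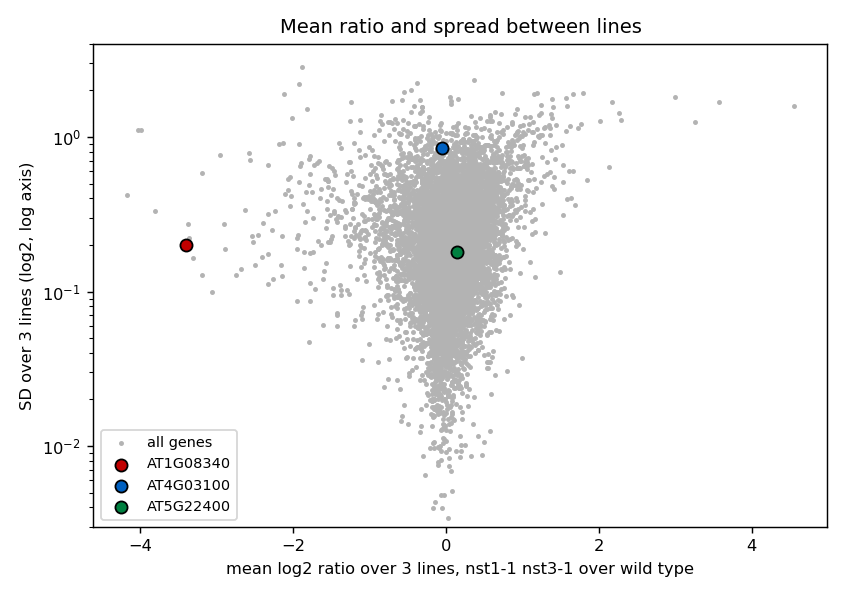
Mean log2 ratio of each gene over the 3 lines, mutant over wild type (horizontal), against the SD between lines on a log axis (vertical), with grey points for all genes and coloured points for the ROP GAP genes. AT1G08340 lies at the far left, at -3.41 with an SD of 0.20, while the other members lie near a mean of 0, AT4G03100 with the higher SD of 0.85 (24 genes with an SD under 0.003 are not drawn).

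The other measured members of the family did not share this ratio. AT5G22400 had log2 ratios of -0.06 in line 1, 0.25 in line 2 and 0.25 in line 3. Mutant and wild type thus differed by at most 1.19-fold in any line, and the mean was 0.15 ± 0.18 (SD, n = 3 lines). The spread between lines exceeded the mean, and 48.9% of genes had a smaller SD.

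AT4G03100 differed in sign between lines. Its log2 ratio was -1.03 in line 1, 0.45 in line 2 and 0.44 in line 3. It was thus 2.04-fold lower in the mutant of line 1, but 1.36-fold and 1.35-fold higher in the mutants of lines 2 and 3. The mean of -0.05 ± 0.85 (SD, n = 3 lines) describes none of the lines, and 97.0% of genes had a smaller SD.

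AT4G03100 and AT5G22400 both had a ratio under 0 in line 1 and above 0 in lines 2 and 3. That order of signs was found in 1185 genes, or 12.8% of all. A ratio at least 2-fold lower in line 1 than in both other lines, as in AT4G03100, was found in 239 genes, or 2.58%. Lines 2 and 3 had opposite dye orientations and gave AT4G03100 nearly the same value, whereas lines 1 and 3 had the same orientation and gave opposite signs. The cause of the difference between lines was not tested.

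Within the family, the lowest ratio of AT4G03100 in any line, -1.03, remained above the highest of AT1G08340, -3.18. Of the 3 measured members, 1, AT1G08340, had a ratio of -1 or lower on every array, a 2-fold decrease or more, against 1.44% of all genes (133 of 9253). None of the 3 was at least 2-fold higher on every array, against 0.173% of all genes. Since AT1G08340 was chosen for its ratio, no test of the difference between members is given.

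**Figure D2:**
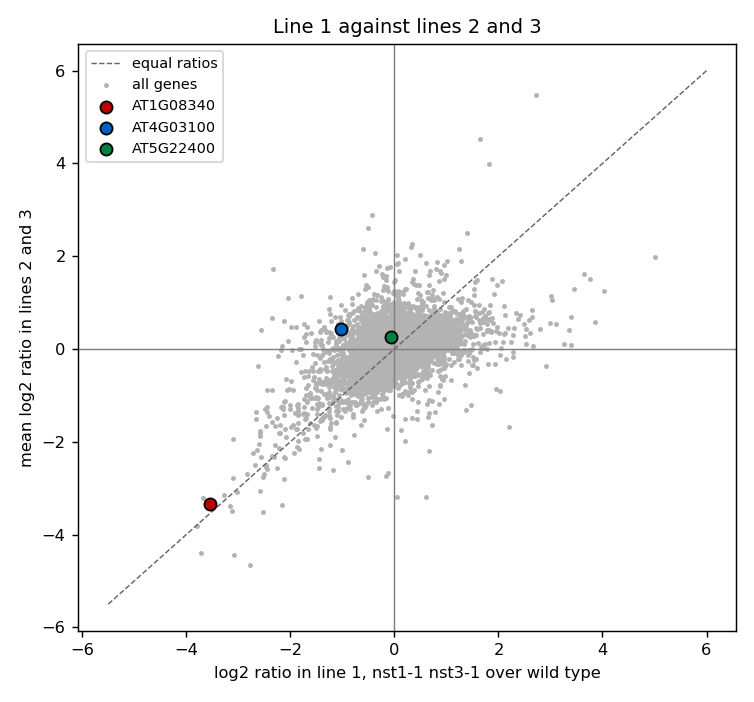
Log2 ratio in line 1 (horizontal) against the mean log2 ratio in lines 2 and 3 (vertical), mutant over wild type, for all genes in grey and the ROP GAP genes in colour, with a dashed line of equal ratios. AT1G08340 lies close to the dashed line at the lower left, AT5G22400 near the origin, and AT4G03100 at the upper left, under 0 in line 1 and above 0 in lines 2 and 3.

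Genes of the ROP pathway and of related lists were thinly represented. The lists held 79 genes, of which 7 were measured. Besides ROP regulators and effectors, they include the NADPH oxidases and the GAPs of other small GTPases (ARF and Ran). No spot was listed for any of the 11 ROP GTPases, the 15 exchange factors, the 11 RIC effectors, which bind active ROPs through a CRIB motif, or the 5 effectors of the ICR family, so none of these was analysed here. With limma fitted over all genes, at a Benjamini-Hochberg adjusted p under 0.05, 1 of the 7 measured genes fell, none rose and 6 were not called. Over all genes 2.60% fell (241 of 9253) and 0.789% rose (73 of 9253). The gene that fell is an NADPH oxidase gene, and the oxidases were listed with its low ratio already known. The count of 1 of 7 was thus set by the choice of lists, and nothing is read from it. The median log2 ratio of the 7 genes was -0.08, against 0.01 over all genes.

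Among the proteins that hold ROPs inactive, the dissociation inhibitors had 2 of 3 listed genes measured and neither was called. SCN1 (AT3G07880), the GDI that confines root hair outgrowth to a single site, had log2 ratios of 0.02, 0.07 and 0.23 in lines 1, 2 and 3, with a mean of 0.10 ± 0.11 (SD, n = 3 lines; limma adjusted p = 0.517). AT1G12070 had ratios of 0.05, 0.33 and 0.32, with a mean of 0.23 ± 0.16 (limma adjusted p = 0.239). Both genes were above 0 in all 3 lines by small amounts.

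Upstream of the ROPs, FER (AT3G51550), the receptor kinase FERONIA that binds ROP exchange factors, had log2 ratios of -0.06, -0.17 and -0.09 in lines 1, 2 and 3 (mean -0.11 ± 0.06, SD, n = 3 lines; limma adjusted p = 0.454). It was the 1 measured gene of 7 on a list of wall patterning and cytoskeleton genes. A GAP for another family of small GTPases, the ARF GAP gene AT3G07940, had a mean of -0.03 ± 0.27 (limma adjusted p = 0.908) and was the 1 measured gene of 17 on its list.

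The called gene of these lists belongs to the respiratory burst NADPH oxidases, membrane enzymes that make superoxide and of which several are regulated by ROPs. AT1G19230 had log2 ratios of -3.72, -4.55 and -4.25 in lines 1, 2 and 3 and the lowest mean of all genes, -4.17 ± 0.42 (SD, n = 3 lines; limma adjusted p = 0.00917). The oxidases were listed with this low ratio already known. The call, like all others, was lost with either line 2 or line 3 left out, or with a dye term. The log2 ratio of AT1G19230 in these settings was -3.99, -4.14 and -4.27, and each fit had 1 residual degree of freedom. The fit without line 1 also had 1, and there AT1G19230 kept its call, at -4.40. Both AT1G19230 and AT1G08340 were more than 8-fold lower on every array. The other measured oxidase genes, AT4G25090 and AT4G11230, were not called, with means of -0.14 ± 0.16 and -0.08 ± 0.20.

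**Figure D3:**
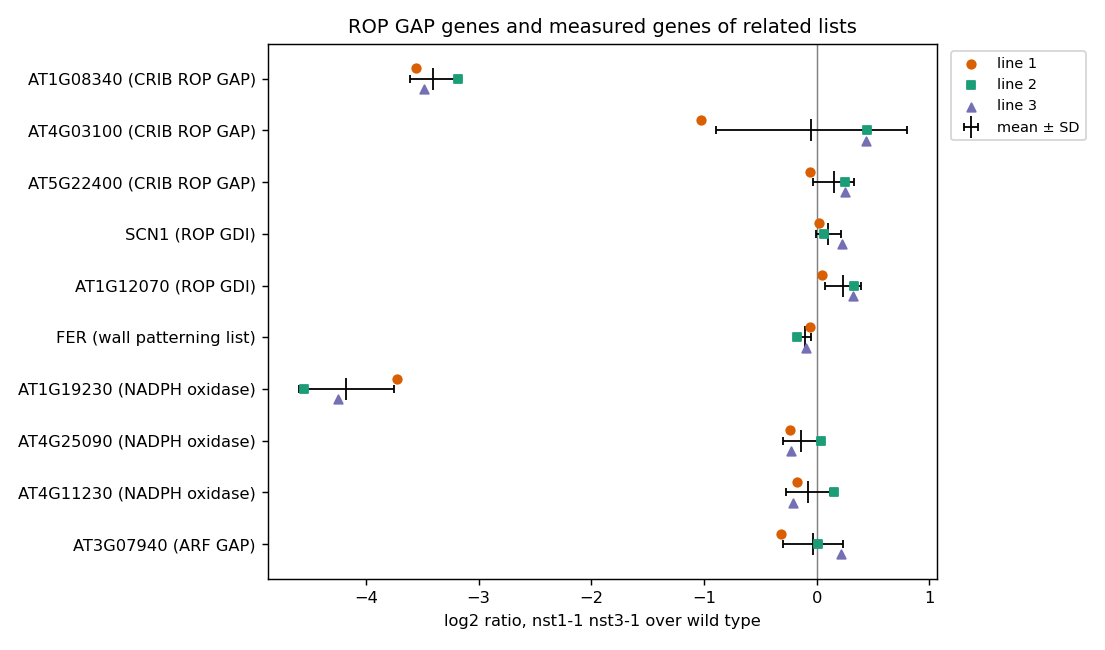
Log2 ratio of mutant over wild type in each line (coloured symbols) with the mean and SD over 3 lines (black bars), for the 3 measured ROP GAP genes with a CRIB domain and the 7 measured genes of the related lists, named at the left. AT1G08340 and AT1G19230 lie below -3 in every line, and the other 8 genes have means between -0.14 and 0.23.

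The 10 genes whose ratios in the 3 lines were nearest to those of AT1G08340 were found by the root mean square difference of the log2 ratios over the 3 arrays. Nearest were AT1G56720, a protein kinase gene, at a difference of 0.20, TBL33 (AT2G40320), which encodes a xylan acetyltransferase, at 0.23, and AT2G03200, an aspartyl protease gene, also at 0.23. The RING-domain protein gene AT4G26580 differed by 0.33 and AT1G17960 by 0.37. The median difference of all other genes from AT1G08340 was 3.43, with 5 genes within 0.5 and 17 within 1. A gene with ratios near 0 lies about that far from AT1G08340. The median thus restates the low mean for which AT1G08340 was chosen, and is no measure of how notable the nearness is. Over 3 arrays, a small difference says only that the ratios were alike.

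TBL33 was the nearest gene with a known part in secondary wall xylan. It measured -3.27, -3.04 and -3.26 in lines 1, 2 and 3, so its highest value, like that of AT1G08340, was in line 2. AT1G56720 measured -3.69, -3.26 and -3.19. IQD21 (AT3G49260), which encodes a calmodulin-binding protein with IQ motifs, was the 6th nearest at a difference of 0.54, with log2 ratios of -3.11, -2.79 and -2.77. The remaining genes of the 10 were AT3G56230, for a BTB/POZ-domain protein, AT3G54040, AT5G47330 and AT1G72200, at differences of 0.58 to 0.70. Over the 10, means ranged from -3.81 to -2.74.

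**Figure D4:**
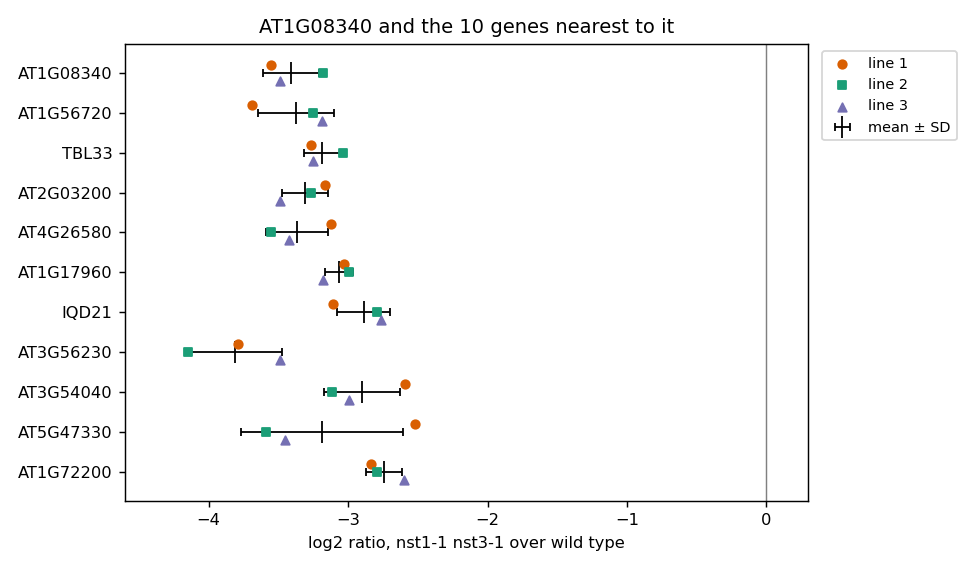
Log2 ratio of mutant over wild type in each line (coloured symbols) with mean and SD over 3 lines (black bars), for AT1G08340 at the top and the 10 genes nearest to it in order of increasing difference. All values lie between -4.15 and -2.52, and AT5G47330 has the widest spread of the 10, with an SD of 0.58.

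The ratio of AT1G08340 was not seen in the genes beside it on chromosome 1. Of the 3 annotated genes on each side, 2 had a spot, both on the same side. AT1G08350, the next gene, whose annotated end overlaps that of AT1G08340, had log2 ratios of -0.00399, -0.05 and -0.10 in lines 1, 2 and 3 (mean -0.05 ± 0.05, SD, n = 3 lines; limma adjusted p = 0.725). AT1G08360, a ribosomal protein gene, had ratios of 0.96, 0.40 and 0.24 (mean 0.53 ± 0.38, limma adjusted p = 0.161). Neither was called, and neither had a ratio near that of AT1G08340 on any array.

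Genes of secondary wall synthesis are given beside AT1G08340 as a description. All 4 measured genes of 17 listed fell, against 2.60% of all genes, with a median log2 ratio of -1.79. None of them was as low as AT1G08340. The count and the median were set by the choice of list, and nothing is read from them. HCT, of lignin monomer synthesis, had a mean of -2.40 ± 0.17 and IRX15, of xylan synthesis, one of -2.14 ± 0.23 (SD, n = 3 lines; limma adjusted p = 0.00917 and 0.0126). These genes were known to be low on these arrays when the list was drawn up, and their calls too were lost without line 2, without line 3 or with a dye term. In these settings HCT had log2 ratios of -2.491, -2.395 and -2.36, and IRX15 of -2.02, -2.151 and -2.199. GUT1 (AT5G61840), of xylan synthesis, had a mean of -0.60 ± 0.06 (limma adjusted p = 0.0483) and also lost its call with a robust prior (0.0508). No vessel marker of 4 listed was measured. Of 10 markers of phloem, cambium, epidermis and green cortex, 6 were measured, and none of the 6 was a cambium marker. The cortex gene LHCB4.3 fell (mean -0.75 ± 0.16, limma adjusted p = 0.0483), and the other 5 were not called and had means from -0.86 to 0.64, though LHCB4.1 and LHCB4.2 passed without line 1 (limma adjusted p = 0.0223 and 0.0249). SWEET11, a phloem sugar transporter, measured 2.28, 0.16 and -0.50 in lines 1, 2 and 3, so line 1 stood apart there too. The part of tissue composition in the ratio of AT1G08340 was not tested.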

How the data were processed

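Two-colour arrays of 3 nst1-1 nst3-1 lines against wild type were analysed. The deposited log10 ratios (22236 spots an array) carry no stated base, direction, scanner, background correction or dye normalization in the sources used here; the base was inferred from a lower bound of exactly -2, and Cy5 over Cy3 was assumed. From these, ratios were turned to mutant over wild type by the dyes in the labels and converted to log2. Spots were named through the platform's annotation and the TAIR10.1 gene table (9335 spots with 1 gene, 40 with several and 12861 with none listed), and spots of a gene were averaged. The test was limma 3.58.1 (R 4.3.3), lmFit and eBayes against 0, two-sided, with Benjamini-Hochberg adjustment over 9253 genes. It was run on simulated data with the same spread for every gene, no dye effect and no array that stood apart. That run therefore does not cover these features of the real arrays. Wild-type spread is not estimated. P-values test the mean ratio against 0, judged by the spread between these 3 samples after limma draws each gene's variance toward that of all genes. The medians of the 3 lines were 0.010, 0.010 and 0.014. Alternatives were centring, scaling, a dye term, single spots, zeros left out, a robust prior, another threshold, line 2 unturned and leaving out each line.

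The members and lists were chosen with earlier results of these data known. The naming rule allowed every measured list gene, the 10 genes nearest to AT1G08340, its 3 rank neighbours on each side and its chromosome neighbours with a spot. Protein and promoter sequences, planned as context, were not analysed here, and 1 list of related genes is not reported here.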

Additional observations from a re-analysis of the deposited data

How the results depend on the processing

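AT1G08340 ranged from -3.52 to -3.33 on the log2 scale with 1 line left out. It was -1.29 with line 2 left unturned, which by construction sets its sign against the others, and -1.03 with the deposited values read as log2, a reading added after the data were seen. AT4G03100 ranged from -0.30 to 0.44 and AT5G22400 from 0.10 to 0.25 with 1 line left out. The mean of AT4G03100 turned from below to above 0 without line 1, with scaled arrays (0.0088) and with the dye term (0.07), and that of AT5G22400 was -0.02 with line 2 unturned; neither gene's mean exceeded its SD as reported.

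Of the 7 pathway and related genes, 1 was called lower. There were 0 with the dye term (1 residual degree of freedom) and with line 2 unturned. With 1 line left out (also 1 residual degree of freedom) there were 0 to 1. None was called higher in any of these settings. Over all genes, 241 were lower and 73 higher. Higher genes numbered 175 with scaled arrays and 140 with zeros left out, and an adjusted p under 0.1 gave 648 lower and 530 higher. Limma called 0 in both directions with the dye term (1592 at an unadjusted p under 0.05) and with line 2 unturned (92). With 1 line left out the counts ran from 0 to 583 lower and from 0 to 574 higher. The highest were without line 1 (3114 at an unadjusted p under 0.05), and the counts of 0 were without line 2 (1373) or line 3 (1430), so AT1G19230, HCT, IRX15 and LHCB4.3 lost their call there. GUT1 (AT5G61840, of xylan synthesis) and LHCB4.3 also lost it with the robust prior. The causes were not tested. The test of ratios against 0 is paired by array, because each array holds mutant and wild type together. Spot brightness was not used, so limits set by dim spots were not judged.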
